A study of Mus musculus with 18 samples.

Results

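The genes described here are 8 mouse genes of tryptophan breakdown and of the aryl hydrocarbon receptor (AHR): Ido1, Ido2, Il4i1, Kynu, Ahr, Ahrr, Cyp1b1 and Tiparp. They were chosen by symbol, as the rows of the deposited count table whose Ensembl identifier carries one of those names, and all 8 were among its 54232 genes. Of the 8 genes, 7 passed the filter on low counts as part of 17074 genes that did, and Il4i1 did not.

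RNA-seq was done on 18 libraries of dendritic cells (DCs) sorted from C57BL/6J mice, all with the genotype CD11a KO, so that Itgal, which encodes CD11a, is targeted in every group and no wild-type library was analysed here. The sorted subsets, CD11b+ DCs, CD103+ DCs and DCs positive for both (double-positive), were each taken from the small intestinal lamina propria (LP) and from intestinal lymph nodes (LN), with 3 libraries in each of the 6 groups. Age, treatment, and whether cells of several mice were pooled are not given in the sources used here for these libraries, so the p-values measure the spread between libraries, which may be technical. The total count was between 23574292 and 46901985 per library, and Itgal itself had between 153 and 1239 counts.

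Tryptophan is opened to N-formylkynurenine by the dioxygenases IDO1 and IDO2, and kynurenine is then used by KMO, by the kynurenine aminotransferases and by kynureninase (KYNU). IL4I1 is a secreted oxidase that turns tryptophan into indole-3-pyruvate. Kynurenine, indole derivatives and many dietary compounds bind AHR, which pairs with ARNT, binds DNA at sites with the core GCGTG and drives Cyp1a1, Cyp1b1, Ahrr and Tiparp, of which the AHR repressor (AHRR) and the ADP-ribosyltransferase TIPARP in turn restrain AHR. In the gut, IDO1 in DCs is known as a brake on T cells, and AHR is known for its place in intraepithelial lymphocytes and ILCs.

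The bases upstream of Ahrr, Cyp1b1 and Tiparp, known targets of the receptor, are shown because Ahrr and Tiparp moved in opposite directions in double-positive DCs. The sequences are RefSeq's (GRCm38.p6), printed 5′ to 3′ on the strand of the gene, without bases that lie inside the annotated gene, and the capitals mark GCGTG or its reverse complement CACGC. The Ahrr bases are chr13:74292332-74292581 (minus strand), those of Cyp1b1 chr17:79715062-79715311 (minus strand) and those of Tiparp chr3:65528197-65528409 (plus strand).
Ahrr: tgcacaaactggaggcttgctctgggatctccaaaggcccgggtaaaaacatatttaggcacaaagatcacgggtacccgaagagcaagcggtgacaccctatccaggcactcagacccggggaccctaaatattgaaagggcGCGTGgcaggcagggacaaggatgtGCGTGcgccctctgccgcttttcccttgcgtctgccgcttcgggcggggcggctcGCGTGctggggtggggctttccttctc
Cyp1b1: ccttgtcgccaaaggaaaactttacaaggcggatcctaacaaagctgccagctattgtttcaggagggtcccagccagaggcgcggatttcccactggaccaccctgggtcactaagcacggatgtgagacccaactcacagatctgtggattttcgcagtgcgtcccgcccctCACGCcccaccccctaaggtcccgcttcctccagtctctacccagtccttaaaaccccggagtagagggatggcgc
Tiparp: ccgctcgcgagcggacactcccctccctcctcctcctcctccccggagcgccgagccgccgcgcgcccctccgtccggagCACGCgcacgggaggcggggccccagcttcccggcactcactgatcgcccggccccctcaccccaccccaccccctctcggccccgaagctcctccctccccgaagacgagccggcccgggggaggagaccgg
Both strands were searched in the 250 bases before each start, with overlaps allowed. Ahrr had 3 matches, and Cyp1b1 and Tiparp had 1 each. The window before the RefSeq start of Il4i1 had 0, and it lies wholly inside the gene as annotated here. Of 32851 promoter windows of that length, 28.2% held at least 1 match and 2.77% held 3 or more, so a single match is common. Ido1, Ido2, Kynu and Ahr had no entry in the table of promoters. A match is a string of letters and not a bound site.

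**Figure D1:**
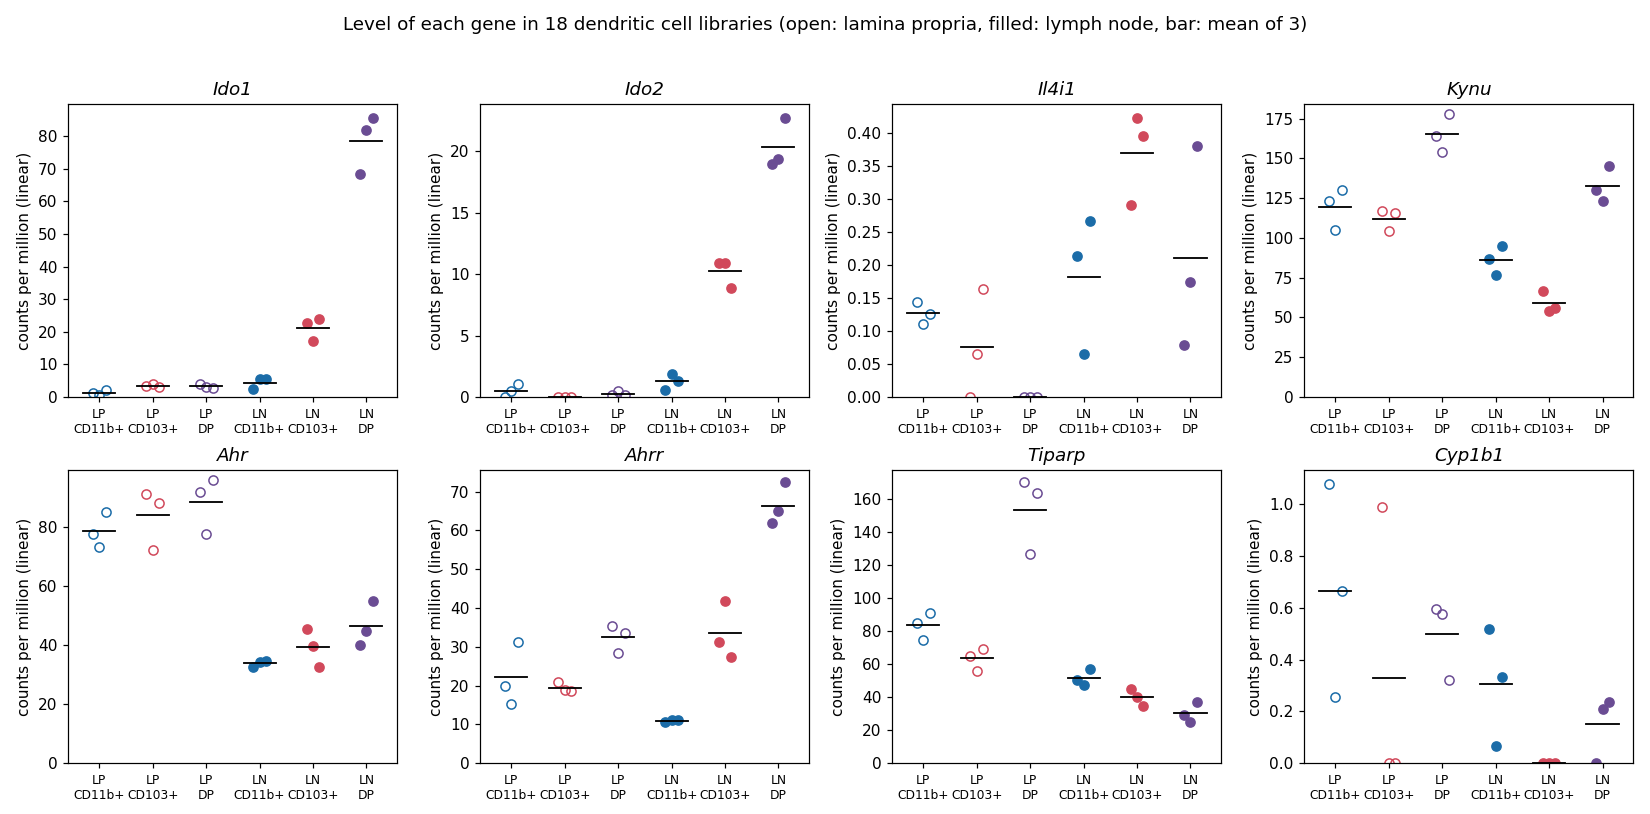
Counts per 1000000 counts of a library (CPM, linear axes from 0, a separate scale for each gene) of the 8 genes in 18 libraries. Each point is 1 library (open, LP, filled, LN) and each bar is the mean of the 3 libraries of a group. Ido1 and Ido2 stand highest in LN double-positive DCs, Ahr stands above 72 CPM in all LP libraries and below 55 CPM in all LN libraries, and Tiparp is highest in LP double-positive DCs. Il4i1 and Cyp1b1 stay near or below 1 CPM.

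Ido1 (chr8:24584136-24597009, minus strand), the first and rate-limiting dioxygenase, was far higher in LN than in LP and highest in double-positive DCs of the LN. Its level was 68.3, 82.0 and 85.5 CPM in the 3 LN double-positive libraries against 3.95, 3.05 and 2.89 CPM in LP double-positive DCs. In CD103+ DCs it was 22.6, 17.2 and 24.1 CPM in the LN and 3.50, 4.04 and 2.94 CPM in the LP. In CD11b+ DCs the values were 2.37, 5.52 and 5.49 CPM in the LN and 1.15, 0.512 and 2.21 CPM in the LP. No LN library overlapped with an LP library of its subset, and the 2 LN groups with CD103 stood clear of all others. The LN was higher by log2 1.77 ± 0.38 (SE, 3.40-fold) in CD11b+ DCs, by 2.597 ± 0.35 (6.05-fold) in CD103+ DCs and by 4.58 ± 0.38 (23.8-fold, 95% interval 13.7 to 41.5) in double-positive DCs, with edgeR adjusted p of 0.0014, 6.5e-06 and 2.2e-08. The first of these 3 differences is the least certain. It was log2 2.41 without LP CD11b+ replicate 3, and it was no longer called (log2 1.59, adjusted p = 0.01) without the 2 LN libraries that carry both Xist and Ddx3y, nor with only the 6 libraries compared (log2 1.77, adjusted p = 0.038).

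Ido2 (chr8:24531892-24576333, minus strand), the neighbour and paralogue of Ido1 with weaker dioxygenase activity, followed a like order at lower levels. LN double-positive DCs had 19.0, 19.3 and 22.7 CPM, LN CD103+ DCs 10.9, 10.9 and 8.85 CPM and LN CD11b+ DCs 0.609, 1.92 and 1.33 CPM. In the LP only a few reads were counted, at most 33 in a library, and the 3 LP CD103+ libraries had 0, 1 and 1. The LN groups of CD103+ and double-positive DCs therefore stood apart from every LP library, and LN CD11b+ DCs did not. In double-positive DCs the difference was log2 6.21 ± 0.71 (74.1-fold, edgeR adjusted p = 1.0e-06), and log2 7.08 without LP double-positive replicate 2. In CD103+ DCs the 723 counts of the LN against 2 of the LP gave a ratio of 508 with a counting interval of 140 to 4200, which covers counting error only, and edgeR called it higher (adjusted p = 3.4e-07). In CD11b+ DCs the 95% interval of the fold was 0.98 to 6.00 (edgeR adjusted p = 0.12).

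Il4i1 (chr7:44816387-44840809, plus strand) had between 0 and 10 counts per library and was not tested. This count cannot be read as a level of its transcript. Of its 4080 annotated exon bases, 3520 (86.3%) are shared with exons of other genes, 3423 of them with Tbc1d17 on the opposite strand, and all 2048 bases of its transcript Il4i1-201 are shared. Counting without regard to strand, which the study states for its own DC libraries, leaves reads in shared bases ambiguous. Tbc1d17 itself stood at 38.1 to 64.4 CPM in LP and 69.3 to 121 CPM in LN libraries.

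Kynu (chr2:43555329-43682715, plus strand), whose product cleaves kynurenine and 3-hydroxykynurenine, was expressed in all 6 groups, and its means differed less than 3-fold between them. Double-positive DCs were highest in each tissue, with 164, 154 and 178 CPM in the LP and 130.1, 123 and 145 CPM in the LN. LP CD11b+ DCs had 123, 105 and 130.2 CPM and LP CD103+ DCs 117, 104 and 115 CPM, which overlap. LN CD11b+ DCs had 86.7, 76.4 and 95.1 CPM and LN CD103+ DCs 66.5, 54.2 and 56.2 CPM. The LN was lower by 0.47, 0.93 and 0.32 on the log2 scale in CD11b+, CD103+ and double-positive DCs, with edgeR adjusted p of 0.0021, 1.1e-06 and 0.016, and none of these passed a fold of 2. In CD103+ DCs the difference passed it without LN CD103+ replicate 1 (log2 -1.05) and with total counts in place of TMM scaling (log2 -1.15).

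On the per-length scale (RPKM, CPM divided by the union exon length in kilobases), which allows genes to be set against each other, Ido1 stood at a mean of 43.1 RPKM in LN double-positive DCs, above Kynu at 21.6 and Ido2 at 5.59 RPKM. In LP double-positive DCs the order was Kynu at 26.9, Ido1 at 1.81 and Ido2 at 0.0734 RPKM.

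Ahr (chr12:35497974-35535038, minus strand) was lower in the LN in all 3 subsets and varied little among subsets. LP libraries had 77.8, 73.5 and 85.3 CPM in CD11b+ DCs, 91.5, 72.5 and 88.2 CPM in CD103+ DCs and 91.9, 77.9 and 96.2 CPM in double-positive DCs. LN libraries had 32.8, 34.4 and 34.8 CPM, then 45.5, 39.7 and 32.7 CPM, and 40.1, 44.7 and 54.9 CPM in the same order of subsets. Every LN library stood below every LP library, while neighbouring subsets of a tissue overlapped. The difference was log2 -1.22 ± 0.13 in CD11b+ DCs (edgeR adjusted p = 2.5e-06) and -1.10 ± 0.13 in CD103+ DCs (adjusted p = 2.0e-06), both called lower. In double-positive DCs it was -0.93 ± 0.13 (edgeR adjusted p = 1.3e-05), a fold of 1.91 that did not pass 2. Single libraries decide on which side of that limit it falls: the CD103+ value was -0.997 without LN CD103+ replicate 3, and the double-positive value was -1.01 without LP double-positive replicate 2 and -1.08 without LN double-positive replicate 3.

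Ahrr (chr13:74211118-74292331, minus strand), the repressor that competes with AHR for ARNT, moved in opposite directions by subset. LN double-positive DCs had 61.8, 64.9 and 72.4 CPM against 35.4, 28.3 and 33.4 CPM in the LP. LN CD103+ DCs had 31.2, 41.8 and 27.4 CPM against 21.0, 18.9 and 18.5 CPM. LN CD11b+ DCs had 10.5, 11 and 11.1 CPM against 20.0, 15.1 and 31.1 CPM. The libraries of the tissues did not overlap in any subset, with the LN on top in those with CD103 and at the bottom in CD11b+ DCs. The difference was called higher in double-positive DCs (log2 1.03 ± 0.20, edgeR adjusted p = 2.8e-04) and lower in CD11b+ DCs (log2 -1.03 ± 0.21, adjusted p = 8.2e-04), and in CD103+ DCs it was 0.78 ± 0.20 (adjusted p = 0.0029), short of a fold of 2. Both calls lie close to that fold. The value in CD11b+ DCs was -0.70 without LP CD11b+ replicate 3, and in double-positive DCs it was 0.95 without LP double-positive replicate 2 and 0.96 without LN double-positive replicate 3.

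Tiparp (chr3:65528410-65555518, plus strand), whose product ADP-ribosylates AHR, was highest in LP double-positive DCs and lowest in the same subset of the LN. The 3 LP double-positive libraries had 170.4, 127 and 164 CPM and the LN ones 29.0, 25.1 and 37.3 CPM. In CD11b+ DCs the LP had 84.8, 74.7 and 91.4 CPM and the LN 50.4, 47.2 and 57.2 CPM. In CD103+ DCs the LP had 65.2, 56.2 and 69.3 CPM and the LN 45.2, 40.1 and 34.7 CPM. No LN library reached an LP library of its subset. The difference was called in double-positive DCs, at log2 -2.34 ± 0.16 (5.05-fold, edgeR adjusted p = 1.6e-09). In CD11b+ and CD103+ DCs it was -0.70 ± 0.15 and -0.67 ± 0.15 (edgeR adjusted p = 0.0014 and 9.4e-04), neither past a fold of 2. Of its exon bases 5.12%, and of those of Ahr 2.06%, are shared with a gene on the opposite strand, so their counts rest almost wholly on bases of their own.

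Cyp1b1 (chr17:79701537-79715061, minus strand), a cytochrome P450 and classical AHR target, was near the limit of detection. The highest of all 18 libraries had 30 counts (1.08 CPM), and the 3 LN CD103+ libraries had 0, which allows up to 0.0425 CPM over the group. The 28 counts of LP CD103+ DCs all came from replicate 1, so the at least 6.64-fold lower level of the LN rests on 1 library. No comparison of Cyp1b1 between tissues was called (edgeR adjusted p = 0.52, 0.038 and 0.29 for CD11b+, CD103+ and double-positive DCs).

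**Figure D2:**
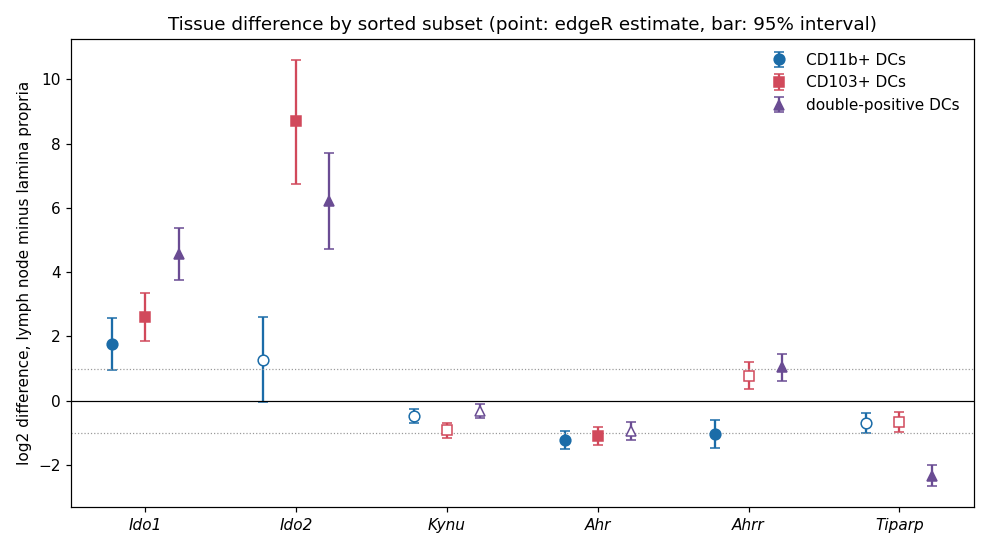
Log2 difference between LN and LP for 6 genes in the 3 subsets, with 95% intervals of the edgeR fit. Filled points passed an adjusted p under 0.01 and a fold over 2, open points did not, and the dotted lines mark that fold. Ido1 lies above 0 in all 3 subsets, Ahr, Kynu and Tiparp below it in all 3, and Ahrr lies on both sides. The Ido2 point of CD103+ DCs rests on 2 counts in the LP.

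Counted over the members, 3 of the 7 tested were called in CD11b+ DCs, where 15.2% of all genes were, 3 in CD103+ DCs, where 35% were, and 4 in double-positive DCs, where 32.1% were. The 3 counts hold 1, 2 and 3 members that were higher in the LN, with 10.3%, 19.8% and 18.6% of all genes called higher, and 2, 1 and 1 that were lower, with 4.93%, 15.1% and 13.6% called lower. The count in CD103+ DCs is thus near its background. The libraries of the tissues did not overlap for 5 of the 7 in CD11b+ DCs, 6 in CD103+ DCs and 7 in double-positive DCs, beside 50.8%, 65.6% and 66.9% of all genes. Without the 2 LN libraries in doubt the counts were 2, 3 and 4, the last with Ahr in place of Ahrr. The median log2 difference of the members was -0.70, -0.67 and -0.32, beside 0.03, 0.04 and 0.07 for all tested genes. Whether the tissue difference itself varied among the 3 subsets was asked with an F test in edgeR. It passed an adjusted p under 0.01 for Tiparp (6.9e-06), Ahrr (3.3e-05), Ido2 (1.0e-04), Ido1 (6.8e-04) and Kynu (0.0082), 5 of 7 where 31.5% of all genes passed, and not for Ahr (0.44) or Cyp1b1 (0.34). The value of Kynu is the weakest: it rose above the limit, to as much as 0.026, when any one of LP CD11b+ replicate 1, LP CD103+ replicate 1 or 3, LP double-positive replicate 1 or 2, LN CD103+ replicate 2 or 3 and LN double-positive replicate 1 or 3 was left out.

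Subsets were also compared within each tissue. In the LN, Ido1 was higher by log2 4.14 ± 0.37 and Ahrr by 2.61 ± 0.21 in double-positive than in CD11b+ DCs (edgeR adjusted p = 1.5e-07 and 5.5e-08). Against CD11b+ DCs, CD103+ DCs were higher in Ido1 by 2.26 ± 0.35 and in Ahrr by 1.63 ± 0.21 (edgeR adjusted p = 3.5e-05 and 4.5e-06). Ido2 was higher in both, by 3.98 ± 0.61 and 2.99 ± 0.59 (edgeR adjusted p = 5.1e-05 and 3.9e-04). These 3 genes were the members called in each of these comparisons, where 16.7% and 25.9% of all genes were called. Between the LN subsets that carry CD103, double-positive DCs were higher in Ido1 (log2 1.88 ± 0.33, edgeR adjusted p = 4.6e-04) and Kynu (1.17 ± 0.11, adjusted p = 6.9e-07), and 6.53% of all genes were called. Ahrr differed there by 0.99 ± 0.20 (edgeR adjusted p = 0.0016), just under a fold of 2, and passed it when any one of LN CD11b+ replicate 2 or 3, LN CD103+ replicate 2 and LN double-positive replicate 1 or 2 was left out. With only the 6 libraries compared, 4 members were called, Ahrr and Ido2 being the additions.

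In the LP the members differed less. Tiparp was higher in double-positive than in CD103+ DCs by log2 1.27 ± 0.15 (edgeR adjusted p = 3.5e-06), the 1 member called where 13.6% of all genes were. Between double-positive and CD11b+ DCs no member was called by edgeR, where 4.81% of all genes were, and DESeq2 called Ido1 (log2 1.34, adjusted p = 0.0017). By edgeR, 4 members had an unadjusted p under 0.05 there. Among them, Tiparp (1.84-fold, edgeR adjusted p = 6.4e-04) and Kynu (1.38-fold, adjusted p = 0.0064) were higher in double-positive DCs and missed only the fold of 2. Between CD103+ and CD11b+ DCs, with 15.7% of all genes called, Ido1 was higher by 1.42 ± 0.38 (edgeR adjusted p = 0.0068) and Ido2, with 2 counts against 47, was lower (adjusted p = 0.0025). Replicate numbers pair these LP libraries, and with the number as a block in a fit of the LP libraries alone neither was called (Ido1 log2 1.52, edgeR adjusted p = 0.029, and Ido2 log2 -4.31, adjusted p = 0.015). Without LP CD11b+ replicate 3 the difference of Ido1 was log2 2.07 and that of Ido2 -3.40. Leaving out LP CD11b+ replicate 1 or 2 or LP CD103+ replicate 1 or 2 also ended the call of Ido1, and leaving out LP CD11b+ replicate 3 or LP CD103+ replicate 1 or 2 that of Ido2.

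The rest of the kynurenine route was read from a list of 10 further genes, 7 of them tested. In CD11b+ DCs 1 was called higher and 2 lower in the LN, in CD103+ DCs 1 and 2, and in double-positive DCs 0 and 2. Of all genes, 10.3%, 19.8% and 18.6% were called higher and 4.93%, 15.1% and 13.6% lower in the same order of subsets. With 7 genes, the counts in CD103+ and double-positive DCs are thus near their background. Kmo, the monooxygenase that commits kynurenine to 3-hydroxykynurenine, fell in all 3. It had 403, 390.4 and 369 CPM in LP double-positive DCs and 19.8, 24.1 and 25.8 CPM in the LN, a difference of log2 -4.06 ± 0.17 (edgeR adjusted p = 7.6e-12). In CD103+ DCs it went from 294, 287 and 267 CPM to 17.3, 12.2 and 13.4 CPM (log2 -4.31 ± 0.17, edgeR adjusted p = 2.5e-12). In CD11b+ DCs it went from a mean of 418 to 169 CPM (log2 -1.30 ± 0.15, edgeR adjusted p = 4.2e-06). Per length, Kmo stood at 82.1 RPKM and Ido1 at 1.81 RPKM in LP double-positive DCs, and at 4.93 and 43.1 RPKM in LN double-positive DCs.

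Kyat3, an aminotransferase that makes kynurenic acid, fell with Kmo in all 3 subsets (log2 -2.21, -2.97 and -2.77, edgeR adjusted p at most 6.3e-06). Qprt, which feeds quinolinate into NAD, was higher in the LN in CD11b+ DCs (1.90 to 6.47 CPM) and CD103+ DCs (0.414 to 1.23 CPM), in the latter with overlapping libraries. Haao, the dioxygenase between KMO and QPRT, was at 50.7 to 118 CPM in the group means and not called. Tdo2, the liver's tryptophan dioxygenase, Aadat and Acmsd were not tested for low counts.

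Of 5 genes for tryptophan uptake, tRNA loading and sensing, all tested, the LN was lower in 1, 3 and 1 in CD11b+, CD103+ and double-positive DCs, and higher in none, beside 4.93%, 15.1% and 13.6% of all genes called lower, so that the count in double-positive DCs is near its background. Slc7a8, a light chain of the large neutral amino acid transporter, was 107, 122 and 135 CPM in LP CD103+ DCs and 10.7, 11.1 and 8.02 CPM in LN CD103+ DCs (log2 -3.60 ± 0.36, edgeR adjusted p = 1.7e-07). It was also lower in CD11b+ DCs, and Slc7a5, the other light chain, fell in CD103+ DCs (62.2 to 30.0 CPM). Eif2ak4, the kinase GCN2 that senses uncharged tRNA, fell in CD103+ (40.3 to 14.2 CPM) and double-positive DCs (41.8 to 16.0 CPM). Wars, which loads tryptophan on its tRNA, was not called. Of the serotonin branch, 4 of 5 genes were tested. In CD11b+, CD103+ and double-positive DCs 1, 0 and 1 were called higher in the LN and 0 lower. Of all genes 10.3%, 19.8% and 18.6% were called higher, so that the last 2 counts are near their background. Tph1, which makes 5-hydroxytryptophan, was called higher in LN CD11b+ DCs (156 counts against 1, LN libraries at 0.533 to 2.95 CPM). Ddc was called higher in LN double-positive DCs (0.291 to 1.86 CPM).

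Among 5 partners of AHR, all tested, 1 was called in each subset, higher in the LN. Of all genes, 10.3%, 19.8% and 18.6% were called higher in CD11b+, CD103+ and double-positive DCs. The counts in CD103+ and double-positive DCs are thus near their background. The gene called was Arnt2, a relative of ARNT known from neurons, at 6.47 CPM in LN CD11b+ DCs and under 2 CPM in the other groups. In CD103+ DCs it had 38 counts in the LN against 0, with LN libraries spread from 0.084 to 1.37 CPM. Arnt itself had means of 36.2 to 45.7 CPM in the 6 groups, and the chaperones Hsp90aa1, Hsp90ab1 and Ptges3 were not called. Per length, Ahr and Ahrr stood at 14.4 and 3.43 RPKM in LP double-positive DCs and at 7.55 and 7.03 RPKM in LN double-positive DCs.

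Of 9 further genes known to respond to AHR or its ligands, 7 were tested, and they did not move one way. In the LN 2 were higher and 1 lower in CD11b+ DCs, 3 and 2 in CD103+ DCs and 2 and 2 in double-positive DCs, beside 10.3%, 19.8% and 18.6% of all genes called higher and 4.93%, 15.1% and 13.6% called lower. Scin, an actin-severing protein, was higher in all 3, from 12.8, 10.4 and 17.95 CPM to 385, 276 and 288 CPM in CD103+ DCs (log2 4.54 ± 0.27, edgeR adjusted p = 2.6e-10). Asb2, part of a ubiquitin ligase, fell from 1082, 1284 and 1104 CPM to 61.8, 49.5 and 42.5 CPM in CD103+ DCs (log2 -4.50 ± 0.14, edgeR adjusted p = 2.1e-13) and from a mean of 961 to 191 CPM in double-positive DCs. Lpcat2, an acyltransferase of platelet-activating factor synthesis, fell in all 3 subsets. Cyp1a1, the best known AHR target, reached a mean of 1.72 CPM in LN CD103+ DCs, 122 counts against 1 in LP CD103+ DCs, and was called there only. Nqo1 was called higher in CD103+ DCs (0.473 to 12.8 CPM), and Aldh3a1, at up to 4.18 CPM, in CD11b+ and double-positive DCs.

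**Figure D3:**
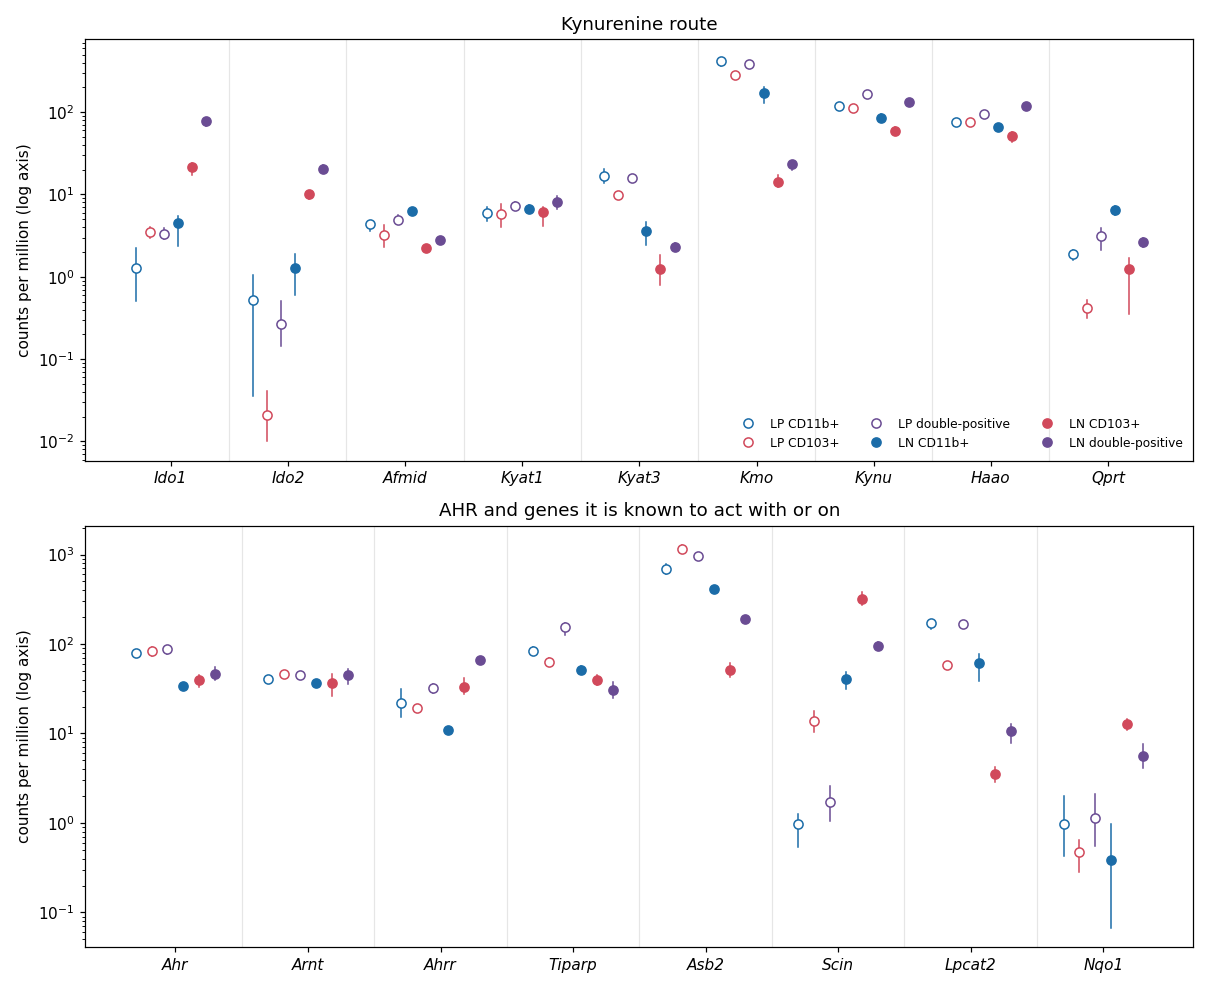
Mean CPM (log axes) of genes of the kynurenine route (upper panel) and of AHR, its partners and genes known to respond to it (lower panel) in the 6 groups. Points are means of 3 libraries, open for LP and filled for LN, and lines span the 3 libraries, with values under 0.01 CPM drawn at 0.01. Kmo lies above 280 CPM in all LP means and below 24 CPM in the means of LN CD103+ and double-positive DCs, while Ido1 lies the other way round, and Scin and Asb2 differ in opposite directions.

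Several other measures moved with tissue, and their part in these differences was not tested. Fewer cells of a type and less RNA per cell cannot be told apart in bulk libraries. The 5 markers of all DCs summed to 63610 to 77680 CPM in LP libraries. In the LN the sums were 35700 to 46230 CPM in CD11b+ DCs and 44020 to 46270 CPM in double-positive DCs. In LN CD103+ DCs they were 18950 to 19450 CPM. In CD11b+, CD103+ and double-positive DCs 0, 3 and 2 of them were called lower in the LN and 0, 0 and 1 higher. In CD103+ DCs mean H2-Ab1 fell from 27791.5 to 3582 CPM, while mean Flt3 rose from 624 to 1032 CPM. The 8 T cell markers summed to 8.60 to 47.6 CPM in LP and 497 to 1013 CPM in LN libraries, none of them at 0 in any group, and all 8 were called higher in the LN in each subset. By subset, the LN sums were 658 to 1013 CPM in CD11b+ DCs, 497 to 737 CPM in CD103+ DCs and 595 to 735 CPM in double-positive DCs. Of 10 genes of DC maturation 8 were called higher in the LN in each subset. Of all genes, 10.3%, 19.8% and 18.6% were called higher in CD11b+, CD103+ and double-positive DCs. In CD103+ DCs 1 was called lower, where mean Cd86 fell from 557 to 148 CPM. In double-positive DCs 1 was also called lower, where mean Cd80 fell from 36.6 to 17.4 CPM. The sums were 1307 to 3094 CPM in the LP and 4673 to 7301 CPM in LN CD11b+ DCs. They were 28450 to 29790 CPM in LN CD103+ DCs and 24000 to 26720 CPM in LN double-positive DCs. Macrophage markers summed to 1069 to 2111 CPM in LP CD11b+ DCs and 460 to 817 CPM in LN CD11b+ DCs, but to 12.3 to 17.8 CPM in LN CD103+ DCs, where 1 of 8 was at 0. They summed to 40.4 to 48.0 CPM in LP CD103+ DCs. In double-positive DCs the sums were 418 to 439 CPM in the LP and 106.5 to 130 CPM in the LN. In CD11b+, CD103+ and double-positive DCs 4, 3 and 7 of the 8 were called lower in the LN and 0, 1 and 0 higher. Epithelial markers summed to 920.2 to 2121 CPM in LP CD11b+ DCs, 643 to 896 CPM in LP double-positive DCs and 83.7 to 144 CPM in LP CD103+ DCs. In the LN they summed to 247 to 340.1 CPM, 199.5 to 234 CPM and 32.6 to 43.9 CPM in the same order. A few genes carry these sums, with means of 1045 CPM of Lyz1 in LP CD11b+ DCs and 452 CPM of Epcam in LP double-positive DCs. Of the 8 genes, 7, 3 and 4 were called lower in the LN in CD11b+, CD103+ and double-positive DCs. The shares of all genes called lower were 4.93%, 15.1% and 13.6%. In double-positive DCs 1 of the 8 was called higher, where mean Lyz1 went from 73.4 to 157 CPM. The B cell list lay between 386 and 590 CPM in LP and between 264 and 1033 CPM in LN libraries. Ighm weighs most in it, with means of 383 CPM in LP CD11b+ DCs and 517 CPM in LP CD103+ DCs. Of 5 B cell genes tested, 4, 3 and 4 were called higher in the LN in CD11b+, CD103+ and double-positive DCs. In CD103+ DCs 1 was called lower. Cd79b went from 24.2 to 76.4 CPM, from 2.70 to 12.8 CPM and from 3.20 to 19.0 CPM in the same order. The plasma cell list lay between 545 and 2219 CPM in LP and between 345 and 1649 CPM in LN libraries. The innate lymphoid list summed to 122 to 128 CPM in LP and 388 to 442 CPM in LN CD11b+ DCs. In CD103+ DCs the sums were 126 to 144 CPM in the LP and 37.3 to 61.3 CPM in the LN. In double-positive DCs they were 149 to 162 CPM and 115 to 172 CPM. Kit weighs most in these sums, with means of 135 CPM in LP and 37.6 CPM in LN CD103+ DCs. Of the 5 genes, 4, 3 and 4 were called higher in the LN in CD11b+, CD103+ and double-positive DCs. In CD103+ DCs 1 was called lower. Gata3 went from 0.257 to 5.92 CPM in CD103+ DCs and from 0.372 to 8.89 CPM in double-positive DCs.

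The sorting labels could be checked only in part. In the LP, CD103+ DCs had 1391 to 1410 CPM of Xcr1 and 1238 to 1440 CPM of Itgae (CD103), while CD11b+ and double-positive DCs had 55.3 to 76.4 CPM of Itgam (CD11b). Itgae was 714 to 896 CPM in LP double-positive DCs. It was 92.1 to 293 CPM in LP CD11b+ DCs, above both LN groups sorted as positive for CD103. In the LN, Itgae was 27.0 to 40.0 CPM in CD103+ DCs and 41.1 to 49.1 CPM in double-positive DCs. Xcr1 was 94.9 to 103 CPM in LN CD103+ DCs and 53.2 to 87.6 CPM in LN double-positive DCs. Itgam was 4.85 to 5.76 CPM in LN double-positive DCs and 13.8 to 25.7 CPM in LN CD11b+ DCs. The LN groups thus carried less RNA of their own sorting markers than the LP groups of the same name, and the subsets of the tissues are named here by their sort. Lineage markers also differed between tissues in each subset. Of 6 markers of type 1 conventional DCs, 3, 0 and 4 were called higher in the LN in CD11b+, CD103+ and double-positive DCs. In the same order 1, 4 and 1 were called lower. Of 6 markers of type 2 conventional DCs, 0, 2 and 0 were called higher and 4, 3 and 5 lower. The shares of all genes were 10.3%, 19.8% and 18.6% called higher and 4.93%, 15.1% and 13.6% called lower. In double-positive DCs the type 2 markers summed to 3105 to 3754 CPM in the LP and 198 to 244 CPM in the LN. In CD103+ DCs the type 1 markers summed to 7755 to 8177 CPM in the LP and 2014 to 2138 CPM in the LN. Ddx3y of the Y chromosome was at 50.04 to 74.4 CPM in the LP, where Xist reached no more than 0.286 CPM. In the LN, Xist was at 15.4 to 89.1 CPM, so tissue and sex of the mice cannot be told apart in any subset. Replicate 3 of LN CD11b+ DCs and of LN double-positive DCs carried both genes.

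For each member with a mean of at least 10 CPM in some group, the 3 genes with the most alike pattern were found by Pearson's r of log2 CPM over the 18 libraries, among 9915 genes. They were Mpi (0.972), Gpr137b (0.971) and Jak2 (0.956) for Ido1, Il10rb (0.972), Pgap2 (0.968) and Cdkn1a (0.968) for Ido2, and Ncf4 (0.953), Gm49101 (0.943) and Gsap (0.933) for Kynu. For the receptor's genes they were Micall2 (0.962), Fam234b (0.956) and Rps6ka2 (0.95) for Ahr, Gpr55 (0.913), Arsa (0.905) and Aqp9 (0.901) for Ahrr, and Kif17, Siglecf and Map4k2 (0.953 each) for Tiparp. These r describe libraries that share tissue and sort, and many genes follow the same grouping.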

How the data were processed

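RNA was measured in 18 libraries of sorted DCs, grouped by subset and tissue from their labels, 3 per group. The authors deposited raw read counts per Ensembl gene, without normalization. The submitters' processing notes name FastQC 0.11.7, STAR 2.6 and GRCm38, and for the study's own DC libraries, alongside which the submitters say these were made, its methods state unique alignments counted without strand. The members and gene lists were chosen with earlier results of these data known, and 2 listed genes are not reported here and were left out of the lists' counts. Symbols and positions came from GENCODE vM21 (54079 of 54232 identifiers matched). Counts were scaled by TMM, filtered with filterByExpr and tested with edgeR 4.0.16 (R 4.3.3) in 1 quasi-likelihood fit of all 18 libraries and 17074 genes, with Benjamini-Hochberg adjustment, after a test on simulated data. Called means an adjusted p under 0.01 and a fold over 2, the study's limits. CPM use TMM library sizes and RPKM also union exon lengths. SE and intervals come from the F statistic. No 2 replicates agreed within sampling noise (chi-square per gene 14.9 to 64.9).

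All 8 members are named, further pathway genes mainly where called, and 3 genes of most alike pattern for each member with at least 10 CPM. Alternatives were DESeq2 1.42.0 (size factors, test), total counts, no or a stricter filter (100 counts in 3 libraries), adjusted p under 0.05, only the libraries compared, a replicate block, and libraries left out. Added after the data were seen was a block fit of the LP libraries alone. Replicates of the same number deviated together in every pair for LP CD103+ with CD11b+ DCs (r 0.194 to 0.25) and with double-positive DCs (0.245 to 0.306), with every r above 0.1, the minimum set for pairing. For LP double-positive with CD11b+ DCs (0.0977 to 0.285) and between LN groups (0.0563 to 0.227) all r were positive but not all passed it, and between tissues some r were negative, so these were not taken as paired.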

Additional observations from a re-analysis of the deposited data

Results flagged for a closer look

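The difference between LN and LP varied among the 3 subsets, by the F test of edgeR with Benjamini-Hochberg adjustment, for Tiparp (adjusted p = 6.9e-06), Ahrr (3.3e-05), Ido2 (1.0e-04), Ido1 (6.8e-04) and Kynu (0.0082). For Tiparp the fall was largest in double-positive DCs, at 5.05-fold against 1.62-fold and 1.59-fold in CD11b+ and CD103+ DCs. For Ahrr the sign differed, with all 3 LN libraries below the LP libraries in CD11b+ DCs and above them in the other subsets. For Ido1 the rise was 3.40-fold, 6.05-fold and 23.8-fold in CD11b+, CD103+ and double-positive DCs. For Ido2 it was not called in CD11b+ DCs, was a count ratio of 508 (interval 140 to 4200, with 2 counts in the LP) in CD103+ DCs and was 74.1-fold in double-positive DCs. For Kynu the falls were 1.39-fold, 1.90-fold and 1.25-fold.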

How the results depend on the processing

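Of the values of single members under the alternatives, 1819 kept their direction and their side of the threshold, 33 lost the call, 27 gained it and 7 changed sign. For each result with a changed call the cause was not tested. Counts of members called moved by over 1.5 times in 5 comparisons. With only the libraries compared, 1 member was called between tissues in CD11b+ DCs, 0 between CD103+ and CD11b+ DCs of the LP, and 4 between double-positive and CD103+ DCs of the LN, and 506 genes rather than 821 were called between double-positive and CD11b+ DCs of the LP. At an adjusted p under 0.05 the latter were 1289, with 1 member, and 2 members were called between double-positive and CD103+ DCs of the LP. DESeq2 called 1 and 2 members in these LP comparisons. Between CD103+ and CD11b+ DCs of the LP, 1 member was called with total counts, and 1 without the 2 LN libraries in doubt.

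Leaving out single libraries gave 0 to 2, 0 to 1 and 1 to 2 members in the LP comparisons of CD103+ with CD11b+, double-positive with CD11b+ and double-positive with CD103+ DCs, 2 to 3 and 2 to 4 between tissues in CD11b+ and CD103+ DCs, 3 to 4 between CD103+ and CD11b+ DCs of the LN, 2 to 3 between its double-positive and CD103+ DCs and 4 to 5 in the F test. The differences that changed sign so were uncalled: Ahrr between CD103+ and CD11b+ DCs of the LP (-0.39 to 0.15), Cyp1b1 (-0.80 to 0.11) and Ido2 (-1.82 to 0.082) between double-positive and CD11b+ DCs, and Ahr (-0.023 to 0.16), Cyp1b1 (-0.016 to 6.83) and Ido1 (-0.24 to 0.026) between double-positive and CD103+ DCs. The F test of Kynu lost its call (adjusted p 0.011 with DESeq2 size factors and 0.024 without the 2 LN libraries in doubt).

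The replicate block in all 18 libraries changed no member's call (3, 3 and 4 members between tissues). The block in LP libraries alone left 0 members between CD103+ and CD11b+ DCs.

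Total counts moved the median log2 difference of all genes from -0.13 to -0.56 between CD103+ and CD11b+ DCs of the LN and from -0.08 to -0.44 between double-positive and CD11b+ DCs, and the share of higher calls from 39.6% to 19.5% and from 41.3% to 19.3%. Ahr then changed sign in the first (log2 -0.22), and between tissues Ahrr fell short of a fold of 2 in CD11b+ (-0.89) and double-positive DCs (0.86). At the counts observed, Cyp1b1 in all groups and Ido2 in the LP have wide intervals.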
